A study of Mus musculus with 6 samples.

Results

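The 10 genes described here are widely used to recognise monocytes and macrophages: Adgre1, Cd68, Csf1r, Itgam, Mertk, Msr1, Ccr2, Ly6c2, Cx3cr1 and Mpeg1. They were taken by gene name from the deposited expression table, in which all 10 are among the 12163 listed genes. They were measured by RNA sequencing in 3 libraries of ungrafted fat and 3 libraries of fat grafts taken 1 week after the operation. All 6 came from wild-type mice of the inbred strain C57BL/6, carry the same tissue label and differ by the graft alone as far as the labels go, and the submitters call the 3 of a group biological replicates. Nothing in those labels states an age, a sex, a fat depot, a graft site or a host, so that RNA of grafted cells and RNA of cells that entered from the recipient cannot be told apart.

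Monocytes are made in the bone marrow, circulate in blood and enter injured tissue, where they mature into macrophages. In mice the inflammatory, Ly6C-high monocytes carry the chemokine receptor CCR2, while patrolling, Ly6C-low monocytes and many resident macrophages carry CX3CR1. Adipose tissue holds resident macrophages, which clear dying fat cells and the lipid that these release, and a fat graft that has lost its blood supply is a setting in which many fat cells die. None of the 10 genes marks a single cell type: Itgam is also a neutrophil gene, and Ccr2, Cx3cr1 and Ly6c2 are found on some lymphocytes and dendritic cells.

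Values below are normalized counts, which appear to be the reads of a gene over the size factor of its library, and ± is the SD of 3 libraries. If the smallest step between the values of a library is 1 read, the listed genes took between 13027776 and 15924559 reads per library; for 2 grafts the step lies so near 1 that this reading is less sure. The table is not a census of the transcriptome, since its values look like those of genes picked by the outcome: the values of the 3 grafts and the 3 libraries before grafting did not overlap for 97.6% of the 10854 genes tested, and 80.4% were called by limma at an adjusted p under 0.05, 41.3% as higher and 39.2% as lower in grafts. Calls on the higher side were 51.3% of all calls, against 41.1% with equal upper quartiles and 24.7% with ribosomal protein genes held level. A gene outside the table was not analysed here, and its absence is not read as a result. The fat label was matched by 9 adipocyte genes, Adipoq and Plin1 among them, whose summed normalized count was 419757 to 569936 before grafting and 9922 to 31646 in grafts. B cell genes were also present before grafting (summed 5850 to 12331) and fell to 315 to 630 in grafts.

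Of the 10 monocyte and macrophage genes, all passed the filter on low values, and 8 were called higher in grafts, against 41.3% of all tested genes. All 8 were higher by at least 1 on the log2 scale, as were 25.6% of tested genes. The groups did not overlap for 9 of the 10, with every graft above every library before grafting, which was so for 49.6% of tested genes. The median log2 fold change of the 10 was 2.44, beside 0.28 for all tested genes, and the range ran from 0.49 for Mertk to 4.66 for Msr1. Mertk and Ly6c2 were the pair that missed the threshold. In bulk tissue, more cells of a type and more RNA per cell cannot be told apart.

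**Figure D1:**
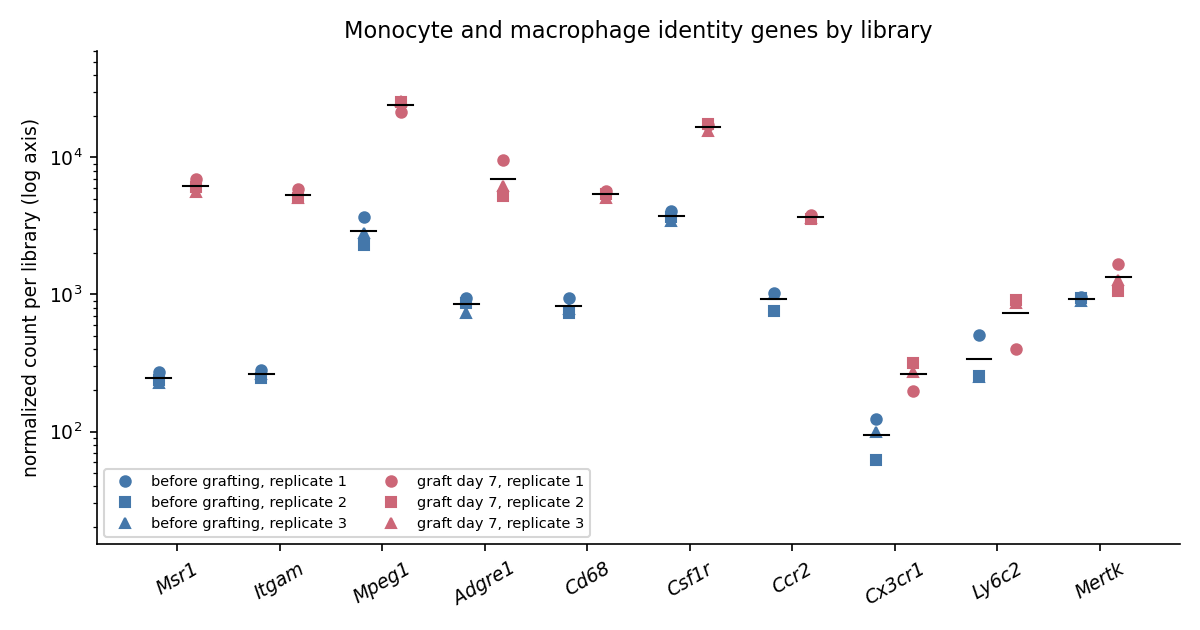
Normalized count of each of the 10 genes in each of the 6 libraries on a log axis, with blue symbols for fat before grafting, red symbols for grafts at day 7 and black bars for the mean of each group. The genes are ordered by fold change, from Msr1 to Mertk, and the groups overlap only for Ly6c2.

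Csf1r (ENSMUSG00000024621, chr18:61105572-61132149 on GRCm38) encodes the receptor for the growth factors CSF1 and interleukin 34, on which most macrophages depend for survival. It had 4033, 3662 and 3434 normalized counts in replicates 1, 2 and 3 before grafting and 17146, 17645 and 15474 in the grafts. Every graft stood clear of every library before grafting, and the 3 grafts lay close together. In grafts Csf1r was higher, with a log2 difference of 2.18 (SE 0.10, limma adjusted p = 5.27e-06). Part of the gene lies over Hmgxb3, which is annotated on the opposite strand and shares 15.1% of the exonic bases of Csf1r in GENCODE M21, and the sources used here do not say whether strand was used in counting.

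Ccr2 (ENSMUSG00000049103, chr9:124101950-124113557) is the receptor that brings inflammatory monocytes out of the marrow and into tissue. It had 1018, 758 and 1013 normalized counts before grafting and 3811, 3554 and 3590 in grafts. It rose 1.99 log2 units (SE 0.13, adjusted p = 2.08e-05), and its coefficient of variation among grafts was 3.82%, the smallest of the 10 genes in that group. Cx3cr1 (ENSMUSG00000052336, chr9:119901616-120069879) is the fractalkine receptor of patrolling monocytes. It had 123.3, 61.8 and 98.4 before grafting and 197.9, 317.1 and 271.0 in grafts. Per kilobase it was the least abundant of the 10 genes in both groups, and its groups were separate but close. Cx3cr1 rose 1.49 log2 units (SE 0.29, adjusted p = 0.00774). Of the genes called higher here, it was the only member that lost its call under another scaling: with ribosomal protein genes held level, its log2 fold change was 0.73 (adjusted p = 0.264).

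Adgre1 (ENSMUSG00000004730, chr17:57358691-57483527) encodes the adhesion receptor F4/80, the classical surface marker of mouse macrophages. It had 946.6, 871.2 and 737.7 normalized counts before grafting and 9606, 5258 and 6167 in grafts. The grafts were all far above the earlier libraries but differed among themselves, with replicate 1 standing highest. Adgre1 rose 3.00 log2 units (SE 0.21, adjusted p = 3.55e-05), and by 2.75 without graft replicate 1.

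Itgam (ENSMUSG00000030786, chr7:128062640-128118491) encodes the integrin alpha M chain (CD11b), which pairs with the beta-2 chain to form the complement receptor of macrophages, monocytes and neutrophils. It had 283.0, 246.2 and 260.7 normalized counts before grafting and 5902, 5025 and 5083 in grafts. Both groups were tight, and the distance between them was many times the spread within either. Itgam rose 4.33 log2 units (SE 0.11, adjusted p = 5.97e-07). Of its exonic bases, 68.7% are shared with the overlapping same-strand gene model Gm49368, which is not analysed here, so the level of Itgam depends on how shared reads were assigned, which is not given in the sources used here. Neutrophil genes moved with it: 9 of 10 tested markers were called higher, the alarmin genes S100a8 and S100a9 among them, and Elane lower. Elane could not be tested with 2 libraries before grafting, since it then had too few values of 10 or more. For the same reason Ly6g and Stfa2l1, both called higher, could not be tested with 2 grafts. The summed normalized count of the 10 markers was 765 to 917 before grafting and 59811 to 94903 in grafts. Ly6g, the defining surface marker of mouse neutrophils, had 3.9, 0 and 2.0 before grafting and 31.1, 41.7 and 60.3 in grafts. The part of neutrophils in the Itgam value was not tested.

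Ly6c2 (ENSMUSG00000022584, chr15:75108158-75111970) encodes a small GPI-anchored surface protein, part of the Ly6C antigen that separates inflammatory from patrolling monocytes. It had 504.9, 253.3 and 248.9 normalized counts before grafting and 402.7, 906.7 and 869.5 in grafts. Graft replicate 1 lay below replicate 1 before grafting, and this was the only member whose groups overlapped. Its log2 fold change was 1.10 with a 95% interval of 0.22 to 1.99 (SE 0.38, limma adjusted p = 0.115), which missed the threshold. Ly6c2 was called higher when either of those 2 libraries was left out. Without graft replicate 1 the log2 fold change was 1.48 (adjusted p = 0.0124), and without replicate 1 before grafting it was 1.44 (adjusted p = 0.0498). With all 6 libraries, Ly6c2 was also called when limma p-values were adjusted over tested genes only (adjusted p = 0.0225).

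The neighbouring paralog Ly6c1, which is abundant in endothelium, went the other way, with 3509, 4736 and 4078 normalized counts before grafting and 1431, 1981 and 1236 in grafts (log2 fold change -1.42, SE 0.19, adjusted p = 0.000912). Of all stretches of 50 bases in the annotated Ly6c2 transcripts, 13.9% also occur in Ly6c1 transcripts, so some reads of the pair may not be assignable to either gene. Within a library, the log2 ratio of Ly6c2 to Ly6c1 was -2.79, -4.22 and -4.03 before grafting and -1.83, -1.13 and -0.51 in grafts, with no overlap. How far reads of Ly6c1 enter the Ly6c2 value was not tested.

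Cd68 (ENSMUSG00000018774, chr11:69664213-69666153) encodes a lysosomal glycoprotein that is abundant in phagocytes. It had 940.7, 737.5 and 786.9 normalized counts before grafting and 5689, 5384 and 5031 in grafts, and rose by 2.71 log2 units (SE 0.11, adjusted p = 3.10e-06). Msr1 (ENSMUSG00000025044, chr8:39581685-39642673) encodes scavenger receptor A, which takes up modified lipoproteins and cell debris. It had 272.1, 238.1 and 226.2 before grafting and 6974, 6081 and 5633 in grafts. Per kilobase only Cx3cr1 was lower before grafting, and the step to the grafts was the largest of the 10 genes, at 4.66 log2 units (SE 0.12, adjusted p = 5.97e-07). Only 249 of the 10854 tested genes had a larger log2 fold change than Msr1.

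Mpeg1 (ENSMUSG00000046805, chr19:12460779-12465284) encodes perforin-2, a pore-forming protein that macrophages use against engulfed bacteria. It had 3662, 2306 and 2801 normalized counts before grafting and 21426, 25375 and 25751 in grafts. It was the most abundant of the 10 genes in grafts per kilobase, and rose by 3.07 log2 units (SE 0.17, adjusted p = 1.05e-05).

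Mertk (ENSMUSG00000014361, chr2:128698956-128802894) encodes the receptor tyrosine kinase with which resident macrophages bind and engulf apoptotic cells. It had 957.5, 942.1 and 889.2 normalized counts before grafting and 1659, 1060 and 1272 in grafts. Every graft was above every earlier library, but the gap was small beside the spread of the grafts. The log2 fold change was 0.49 with a 95% interval of 0.13 to 0.86 (SE 0.16, limma adjusted p = 0.0815). This interval lies below the estimates of the 8 called genes, the smallest of which was 1.49 for Cx3cr1. The interval of Cx3cr1 itself, 0.82 to 2.16, overlaps that of Mertk, and the difference between the genes was not tested. Without graft replicate 2 the log2 fold change of Mertk was 0.64 (adjusted p = 0.0223). With ribosomal protein genes held level its direction turned, to -0.28 (adjusted p = 0.562).

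**Figure D2:**
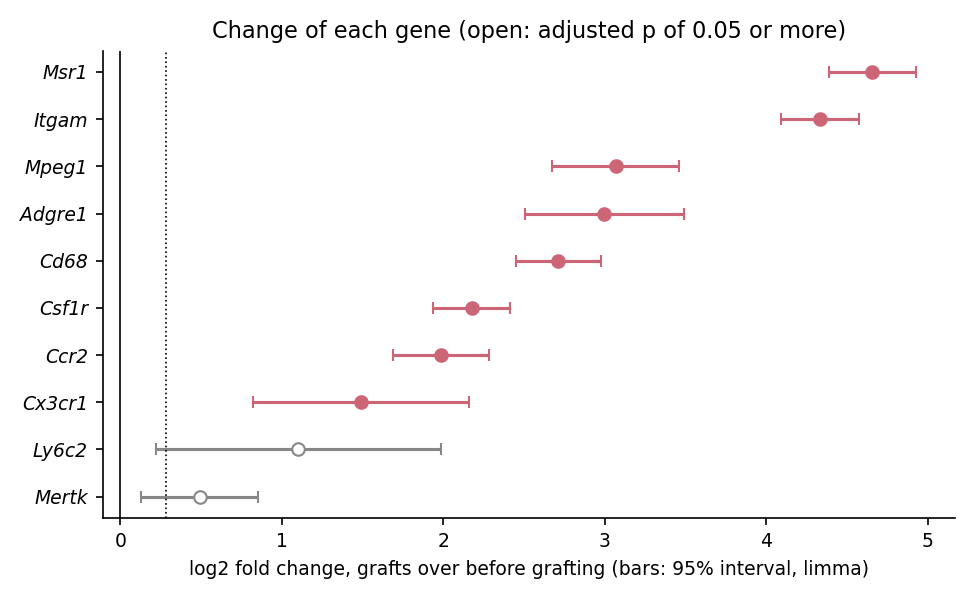
Log2 fold change of each gene, grafts over before grafting, with 95% intervals from limma. Filled points are genes called at an adjusted p under 0.05, open points are Ly6c2 and Mertk, and the dotted line is the median of all tested genes at 0.28.

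Promoter sequence is shown for Itgam and Cd68, which rose, and for Ly6c2 and Mertk, the pair that missed the threshold. RefSeq windows (GRCm38.p6) of the 250 bases before the transcript start were at hand for 7 of the 10 genes; Adgre1, Msr1 and Csf1r are named only. PU.1, encoded by Spi1, is the ETS factor that directs myeloid gene expression and reads a purine-rich core, GAGGAA. This core was searched on both strands and is in capitals below.
Itgam, chr7:128062390-128062639, plus strand: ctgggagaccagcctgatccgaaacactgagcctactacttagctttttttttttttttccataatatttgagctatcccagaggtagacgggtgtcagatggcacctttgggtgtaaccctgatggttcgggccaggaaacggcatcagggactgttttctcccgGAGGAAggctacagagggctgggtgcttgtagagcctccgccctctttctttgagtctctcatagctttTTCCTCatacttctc
Cd68, chr11:69666171-69666420, minus strand: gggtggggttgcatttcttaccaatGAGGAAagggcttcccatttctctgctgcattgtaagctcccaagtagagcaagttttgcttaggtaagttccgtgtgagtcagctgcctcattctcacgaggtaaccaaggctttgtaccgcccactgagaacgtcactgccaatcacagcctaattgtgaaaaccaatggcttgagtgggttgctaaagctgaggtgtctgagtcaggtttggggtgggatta
Ly6c2, chr15:75111972-75112221, minus strand: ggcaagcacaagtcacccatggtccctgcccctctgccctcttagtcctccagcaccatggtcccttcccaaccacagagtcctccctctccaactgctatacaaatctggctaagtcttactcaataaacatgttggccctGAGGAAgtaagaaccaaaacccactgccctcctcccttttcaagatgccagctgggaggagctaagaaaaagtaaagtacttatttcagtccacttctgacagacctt
Mertk, chr2:128698665-128698914, plus strand: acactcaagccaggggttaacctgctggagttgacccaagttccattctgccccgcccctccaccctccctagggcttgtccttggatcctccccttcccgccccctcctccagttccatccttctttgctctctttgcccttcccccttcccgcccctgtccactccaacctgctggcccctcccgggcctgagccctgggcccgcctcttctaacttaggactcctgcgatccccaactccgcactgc
The window of Itgam held 2 matches, at 84 to 79 bases before the start and, on the other strand, at 15 to 10 bases before it. Cd68 and Ly6c2 held 1 match each, and Mertk held none. The windows of Ccr2, Cx3cr1 and Mpeg1 also held no match, so 3 of 7 had the core, beside 23.3% of 32851 windows of the same length over all RefSeq promoters. The Ccr2 window (chr9:124101933-124102182) lies almost wholly inside the gene span given above, and the Cx3cr1 window (chr9:120068297-120068546) wholly inside its own. These windows precede RefSeq starts but are not upstream of those spans. The AP-1 motif TGANTCA occurred at 2 places in the Cd68 window and in no other, beside 6.75% of all windows. The TATA motif TATAAA was in none of the 7, beside 12.4% of all windows. The Mertk window had 63.6% G and C, the highest of the 7, and that of Ccr2 had 37.2%, the lowest. No match of the AP-1 motif overlapped a match of the PU.1 core.

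Levels of different genes can be set side by side only per length, here as normalized counts per kilobase of the deposited gene length. Before grafting Csf1r stood first, at 759.4 ± 61.9 (SD, n = 3), followed by Mpeg1 at 674.3 ± 158.3 and Cd68 at 653.7 ± 84.3. The ranges of these leading genes overlapped from each to the next. Csf1r has a deposited length of 4885 bases but 5774 exonic bases in GENCODE M21, so its level and first place depend on the gene model. Adgre1 came next at 263.1 ± 32.7 and Mertk at 214.4 ± 8.3, both with ranges apart from the next gene. Ccr2 (137.5 ± 22.0) and Ly6c2 (122.5 ± 53.5) overlapped, and below them lay Itgam (52.4 ± 3.7), Msr1 (38.7 ± 3.8) and Cx3cr1 (20.97 ± 6.86).

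In grafts the order per kilobase began with Mpeg1 at 5579 ± 553, Cd68 at 4271 ± 262, Csf1r at 3430 ± 233 and Adgre1 at 2165 ± 708, each with a range apart from the next. Itgam at 1062 ± 98 and Msr1 at 981.9 ± 107.6 overlapped. Ccr2 followed at 540.2 ± 20.6, then Mertk at 306.8 ± 70.1 and Ly6c2 at 265.1 ± 102.5, which overlapped, and Cx3cr1 stayed last at 58.2 ± 13.4. Mertk thus went from rank 5 of 10 to rank 8, Itgam from rank 8 to rank 5 and Msr1 from rank 9 to rank 6.

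A ratio of a pair of genes within 1 library does not depend on how libraries are scaled to each other. The 8 ratios computed were each tested by an exact two-sided permutation test over the 6 libraries, in which 3 against 3 cannot go below p = 0.1, and none could therefore pass a threshold of 0.05. The log2 ratio of Mertk to Adgre1 was 0.02, 0.11 and 0.27 before grafting and -2.53, -2.31 and -2.28 in grafts (difference -2.51, exact p = 0.1, adjusted over 8 p = 0.133). On the linear scale the ratio was 1.01 to 1.21 before grafting and 0.173 to 0.206 in grafts. Msr1 to Cd68 went from -1.79, -1.63 and -1.79 to 0.29, 0.18 and 0.16 (difference 1.95, exact p = 0.1).

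Itgam to Adgre1 went from -1.74, -1.82 and -1.50 to -0.70, -0.07 and -0.28 (difference 1.34, exact p = 0.1), with the lowest graft value in replicate 1, where Adgre1 was highest. Csf1r to Adgre1 went from 2.09, 2.07 and 2.22 to 0.84, 1.75 and 1.33 (difference -0.82, exact p = 0.1). For these ratios the groups did not overlap. The ratio of Ccr2 to Cx3cr1, the receptors of inflammatory and patrolling monocytes, overlapped between the groups, with 3.04, 3.59 and 3.35 before grafting and 4.26, 3.48 and 3.72 in grafts (difference 0.49, exact p = 0.2). Ly6c2 to Ccr2 overlapped as well, with -1.01, -1.58 and -2.02 before grafting and -3.24, -1.97 and -2.04 in grafts (difference -0.88, exact p = 0.2).

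**Figure D3:**
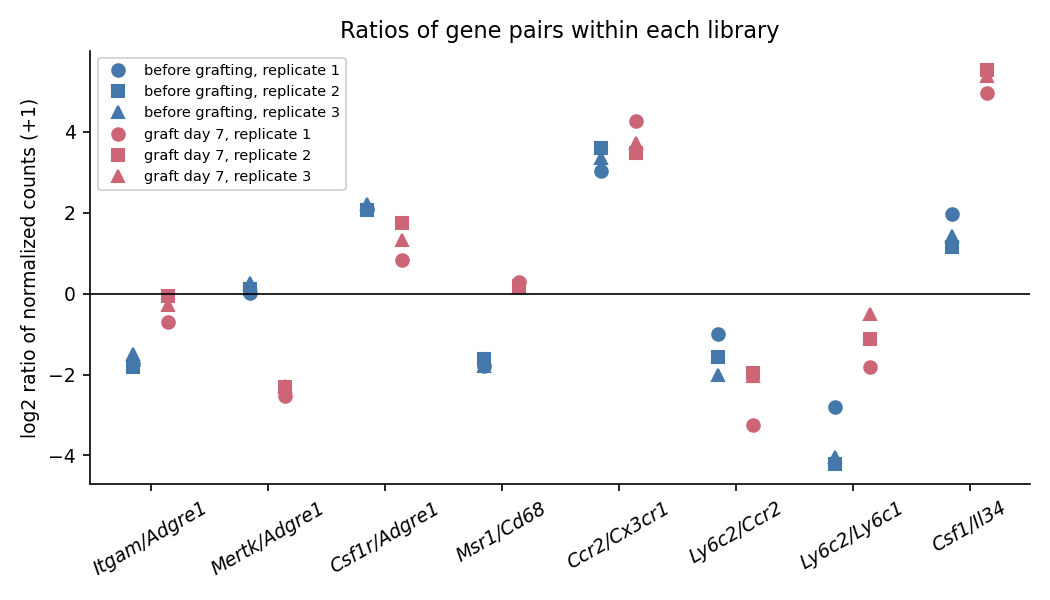
Log2 ratio of normalized counts (with 1 added) of 8 gene pairs in each of the 6 libraries, blue before grafting and red in grafts, with 1 symbol shape per replicate number. The groups are apart for 6 pairs and overlap for Ccr2/Cx3cr1 and Ly6c2/Ccr2.

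Within a group, the members shared their highest library before grafting but not in the grafts. Before grafting, replicate 1 had the highest value of all 10 genes, with a median log2 deviation from the group mean of 0.16, and replicates 2 and 3 each had the lowest value of 5. The same library also held the highest summed B cell count (12331, against 5850 and 9732 in replicates 2 and 3). How many of all tested genes were highest in that library was not counted, so its lead is not shown as particular to these genes. In the grafts no library led throughout. Replicate 1 was highest for 6 genes, among them Adgre1, Mertk, Msr1 and Itgam, and lowest for Ly6c2, Cx3cr1 and Mpeg1. It lay 0.50 above the graft mean for Adgre1 on the log2 scale, 0.34 above it for Mertk, and its deviation was -0.76 for Ly6c2. That graft also kept the most adipocyte RNA, with a summed count of 31646 for the 9 adipocyte genes against 13483 and 9922 in replicates 2 and 3. The part of B cells or of residual adipose tissue in these differences was not tested.

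**Figure D4:**
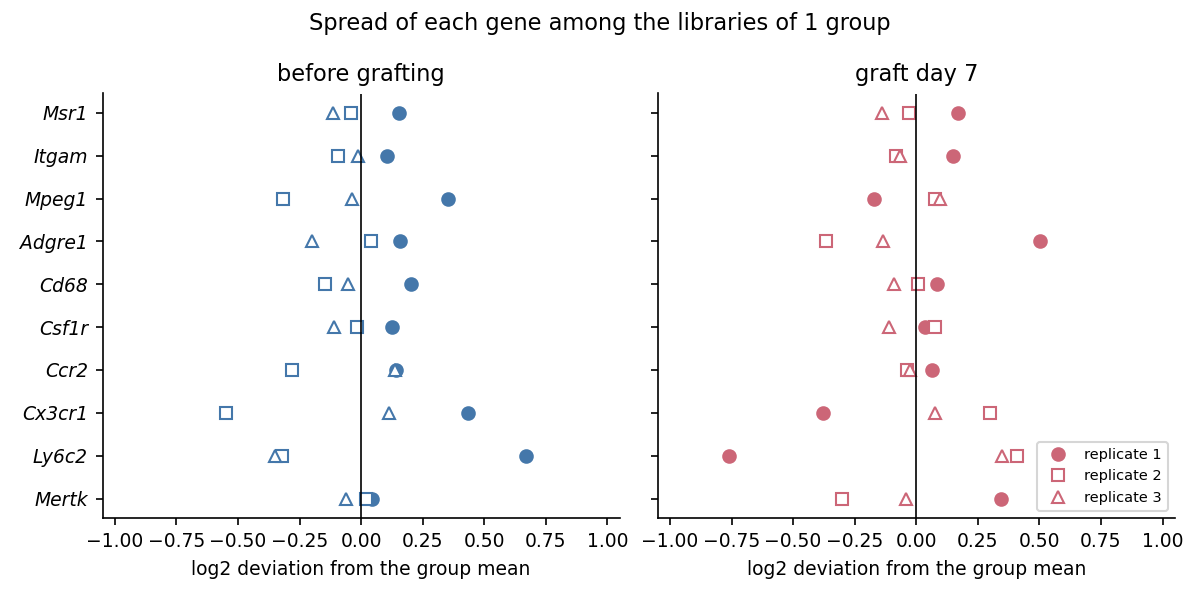
Deviation of each library from the mean of its group on the log2 scale for each of the 10 genes, with before grafting on the left and grafts on the right. Filled circles are replicate 1, which is highest for all 10 genes before grafting and both highest (6 genes) and lowest (3 genes) among the grafts.

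Partners of the 10 genes were counted from fixed lists. Each count stands beside a table in which 41.3% of all tested genes were called higher and 39.2% lower. Of the receptors and ligands of the colony-stimulating factors, 6 of 7 tested genes were called higher and 1 lower, with a median log2 fold change of 1.61, beside 0.28 for all tested genes. Csf1, a ligand of the Csf1r protein, had 1791, 1481 and 1392 normalized counts before grafting and 2408, 3893 and 2611 in grafts (log2 fold change 0.91, SE 0.19, adjusted p = 0.0109). The call of Csf1 was lost without replicate 2 or 3 before grafting (adjusted p = 0.0628 and 0.0658) and with ribosomal protein genes held level, where its log2 fold change was 0.14. Il34, the other ligand, which some tissues use to keep resident macrophages, fell from 456.5, 669.6 and 522.3 to 77.3, 84.4 and 62.3 (log2 fold change -2.86, adjusted p = 2.87e-05). The log2 ratio of Csf1 to Il34 within a library went from 1.97, 1.14 and 1.41 to 4.94, 5.51 and 5.37 (exact p = 0.1). The largest rises of the list were Csf3, the granulocyte growth factor, with 1.0, 0 and 3.0 before grafting and 927, 1424 and 1382 in grafts, its receptor gene Csf3r and Csf2ra. Csf3 passed the filter on low values only through the grafts. Csf2 was outside the table and not analysed here.

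Among transcription factors of monocytes and macrophages, 9 of 10 tested genes were called higher and 1 lower (median 2.67). Spi1, the gene of PU.1, had 604.4, 492.3 and 577.4 normalized counts before grafting and 4621, 4476 and 4278 in grafts (log2 fold change 3.00, SE 0.10). Maf, a factor of macrophage identity, went from a mean of 2083 ± 157 to 3251 ± 360. With ribosomal protein genes held level, Maf turned direction, to -0.13, and Zeb2 and Id2 of the same list lost their calls (log2 fold change 0.27 each). Nr4a1, which patrolling monocytes need, went from 178.1 ± 38.1 to 1709 ± 372 and is also a rapidly induced stress gene. Cebpb and Runx1 rose by log2 fold changes of 3.32 and 3.22. Cebpa, which both myeloid precursors and adipocytes use, was the 1 factor that fell, from 9002 ± 2328 to 1733 ± 458. Irf8 was not analysed here.

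Of 7 tested chemokines that attract monocytes, 5 were called higher and none lower (median log2 fold change 5.26). The CCR2 ligands Ccl2 and Ccl7 went from 42.4 ± 5.4 to 2014 ± 668 and from 51.7 ± 4.9 to 2016 ± 231 normalized counts. Ccl12, another CCR2 ligand, had 58.2, 48.6 and 81.6 before grafting and 465.0, 184.3 and 102.9 in grafts, which missed the threshold (log2 fold change 1.74, adjusted p = 0.0536). Without graft replicate 3 it was 2.24 (adjusted p = 0.0113), without graft replicate 1 it was 1.15 (adjusted p = 0.0638), and with ribosomal protein genes held level it was 0.97 (adjusted p = 0.482). Ccl3 and Ccl4, chemokines that activated macrophages make, went from 7.9 ± 3.9 to 8320 ± 2749 and from 12.7 ± 7.6 to 4341 ± 1534. Cx3cl1, the ligand of CX3CR1, was not analysed here. Of 8 other receptors of monocyte attractants, 7 were called higher and 1 lower (median 4.23). Ccr1 went from 84.1 ± 10.7 to 4808 ± 864, and the formyl peptide receptor gene Fpr2 from 7.6 ± 3.1 to 3426 ± 403. Fpr1 was listed at 0, 0 and 1.0 before grafting and at 3629, 3384 and 4486 in grafts. Fpr1 and Fpr2 passed the filter on low values only through the grafts, where they are high, and both enter the count and median above. Ccr7, a homing receptor of dendritic cells and lymphocytes, fell (log2 fold change -2.78, adjusted p = 0.0203), a call that was lost without any 1 of the 3 libraries before grafting or without graft replicate 1.

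Adhesion genes of monocyte entry divided less cleanly, with 6 of 10 tested called higher and 1 lower (2 without replicate 2 before grafting; median log2 fold change 1.20), and 2 of each with ribosomal protein genes held level. Itgb2, the beta-2 chain that pairs with the Itgam product, had 1934, 1357 and 1771 normalized counts before grafting and 9353, 11227 and 9371 in grafts (log2 fold change 2.57, SE 0.15). Itgax, the alpha X chain (CD11c), went from 267.3 ± 50.4 to 688.2 ± 374.9 (adjusted p = 0.0389), with replicate 2 highest among the grafts. That call was lost under each of the 4 other scalings, and without any 1 library before grafting or graft replicate 3. Icam1 and Selp, endothelial ligands of leukocytes, rose by log2 fold changes of 1.80 and 1.68, and Vcam1 fell (-0.52, adjusted p = 0.00882). Selp lost its call without replicate 2 before grafting (adjusted p = 0.0546) and with ribosomal protein genes held level (0.91). Itgal, Icam2 and Pecam1 were not analysed here.

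Genes of apoptotic cell uptake gave 10 of 13 tested as higher and 2 as lower (their median change was 1.5 log2 units). Tyro3, a receptor of the same family as Mertk, rose from 44.7 ± 6.7 to 127.3 ± 11.2 normalized counts. Of the bridging ligands of these receptors, Pros1 rose from 1686 ± 121 to 3110 ± 190 (log2 fold change 0.88, adjusted p = 0.000324), while Gas6 had 3915, 3627 and 3053 before grafting and 2776, 2684 and 3107 in grafts (-0.30, adjusted p = 0.177). With ribosomal protein genes held level, Tyro3 (0.74) and Pros1 (0.11) lost their calls and Gas6 (-1.07) was called lower, as it was with median-ratio scaling (-0.42) and equal upper quartiles (-0.49). The vitronectin receptor chains Itgav and Itgb3 and the complement gene C1qb rose by log2 fold changes of 2.17, 1.71 and 1.76. Timd4, a phosphatidylserine receptor of long-lived resident macrophages, fell from 1452, 936 and 1372 to 34.1, 33.0 and 12.9 (-5.60, SE 0.37, adjusted p = 2.42e-05), and Stab2, a scavenger receptor of lymphatic and sinusoidal endothelium, by -4.80 on the log2 scale. Axl was not analysed here.

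Other scavenger receptors divided into 4 called higher and 3 lower among 7 tested (median log2 fold change 0.62), or 2 higher with ribosomal protein genes held level. Over all tested genes, 41.3% were called higher and 39.2% lower, so a split of this kind is not particular to the list. Olr1, a receptor for oxidized lipoprotein, went from 5.3 ± 2.4 to 426.5 ± 117.6 normalized counts, and Colec12 and Scara3 rose by log2 fold changes of 1.41 and 1.21. Olr1 passed the filter on low values only through the grafts. Cd36, the fatty acid and lipoprotein receptor that adipocytes, endothelium and macrophages all express, fell from 56799 ± 7999 to 10911 ± 4967 (-2.49, adjusted p = 0.0013). Scara5 and Scarb1 fell as well. Scara3 lost its call without replicate 2 before grafting (adjusted p = 0.0519) and with ribosomal protein genes held level (0.44), and Scara5 without replicate 1 or 2 before grafting or graft replicate 1. Marco, Cd163 and Mrc1 were not analysed here.

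Among 18 other tested macrophage and monocyte markers, 17 were called higher and 1 lower, with a median log2 fold change of 3.14. Lyz2, the lysozyme of myeloid cells, went from 15356 ± 1185 to 136652 ± 8178 normalized counts and Cd14, the endotoxin co-receptor, from 920.1 ± 271.2 to 14939.8 ± 4548. The Fc receptor gene Fcgr4 and the inhibitory receptor gene Lilrb4a had the largest changes, at log2 fold changes of 5.68 and 5.34. Lyve1, a marker of lymphatic endothelium and of perivascular resident macrophages, was the 1 that fell, from 1980, 2173 and 1890 to 357.5, 304.5 and 75.2. All 9 tested genes of Ly6C-high monocytes were called higher (median log2 fold change 2.38), led by Thbs1, Chil3 and Vcan, although several of them, Fn1 and Thbs1 among them, are made by other cells of a wound. The grafts differed widely in Chil3, with 4049, 234.7 and 1355 normalized counts in replicates 1, 2 and 3, and also in Thbs1, with 25374, 66384 and 23258. Chil3 lost its call without replicate 2 before grafting (adjusted p = 0.0548). Of 7 tested genes of Ly6C-low monocytes, 4 were called higher, led by Cd300e, Treml4 and Nr4a1, and Ear2, Ace and Spn fell (median 2.60). Cd300e passed the filter on low values only through the grafts.

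**Figure D5:**
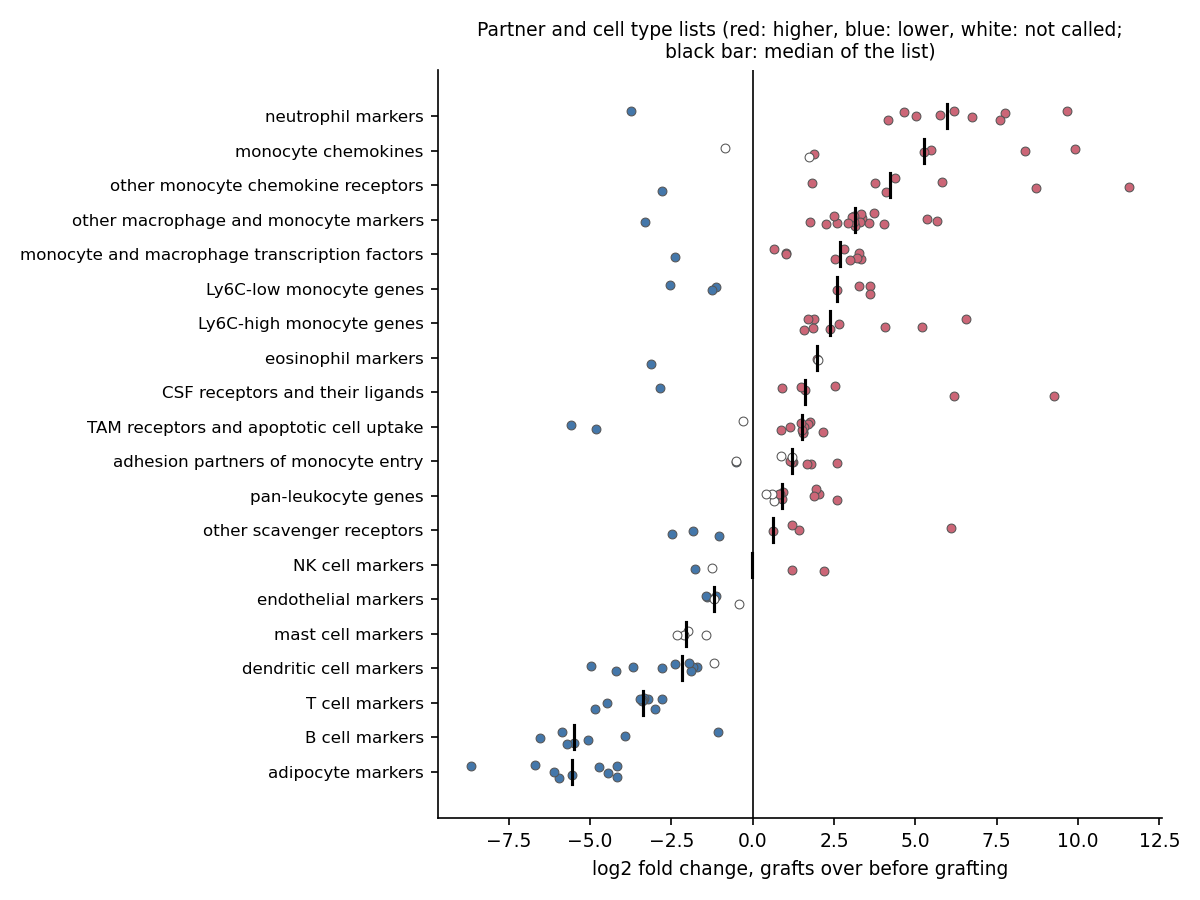
Log2 fold change of each tested gene in 20 lists of partners and cell type markers, with red points called higher, blue points called lower, white points not called and a black bar at the median of each list. Neutrophil markers and monocyte chemokines have the highest medians, and adipocyte and B cell markers the lowest.

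Markers of other cells that can carry some of the 10 genes moved in several directions. For these lists too, the shares over all tested genes were 41.3% called higher and 39.2% called lower. Pan-leukocyte genes were called higher for 8 of 11, or 4 of 11 with ribosomal protein genes held level, with Lcp1 and Vav1 next after Itgb2, and a median log2 fold change of 0.91. Ptprc, the gene of CD45, was not analysed here. All 9 tested T cell markers were called lower (median log2 fold change -3.37), with a summed normalized count of 3879 to 6867 before grafting and 283 to 735 in grafts. All 7 tested B cell markers were called lower too (median -5.49). Of 10 tested dendritic cell markers 9 were called lower (median -2.18), or 5 without replicate 1 before grafting, and Flt3, their growth factor receptor gene, went from 398.4, 153.0 and 280.3 to 50.2, 153.2 and 62.3. Its groups overlapped, and its call (log2 fold change -1.70, adjusted p = 0.0452) was lost without any 1 library other than replicate 2 of either group.

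Natural killer cell markers were near level as a sum, at 360 to 576 before grafting and 365 to 589 in grafts, with 2 of 4 tested called higher, namely Gzmb and Gzma, and Eomes lower. Only 4 of the 9 genes of that list were in the table, and Ncr1, Klrb1c and Prf1 were not analysed here. Within the sum Gzmb went from 42.4 ± 5.2 to 195.3 ± 27.5 normalized counts. Klrk1 went the other way without a call, from 270.0 ± 70.9 to 119.5 ± 60.2. The list turned to 1 higher and 2 lower with equal upper quartiles and with ribosomal protein genes held level, and 2 were lower with median-ratio scaling, with equal listed totals and without graft replicate 2. The higher count was also 1 without any 1 library before grafting or without graft replicate 2 or 3. Eosinophil markers were few, with Ccr3 called higher and Il5ra lower among 3 tested (2 called higher without replicate 2 before grafting, with a pseudocount of 5 and with no filter), and sums of 79 to 114 and 102 to 164. Il5ra passed the filter on low values only through the libraries before grafting. The 4 tested mast cell markers had 0 calls by limma, 3 had an unadjusted p under 0.05 on the lower side, and all 4 were called lower without graft replicate 3 (2 without graft replicate 1 and with ribosomal protein genes held level). Of 5 tested endothelial markers, 3 were called lower, or 5 without graft replicate 1, with equal upper quartiles and with ribosomal protein genes held level.

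The genes whose values ran most like the members were found by distance, over the 6 libraries, between gene-centred log2(value + 1) profiles, as a description that the difference between the groups dominates. Nearest to Csf1r was Tlr8 at a distance of 0.09, with 249.5, 222.9 and 198.7 normalized counts before grafting and 1034, 1097 and 973 in grafts. Nearest to Mpeg1 was Cybb at 0.10, and nearest to Itgam was Igsf6 at 0.16. Ccr2 ran closest to Ifi30 (0.16), Cd68 to Rtn4rl2 (0.18), Cx3cr1 to Resf1 (0.28) and Msr1 to Ms4a6d (0.35). Adgre1 ran closest to Pbk (0.27), which like it was highest in graft replicate 1. Mertk had Zfand2b nearest (0.13), and Ly6c2 had its nearest gene, Zbp1, farthest away (0.46). To the mean profile of the 10 genes the nearest were Plxnb2, Sirpa, B4galt6, B4galt5 and Csf2ra, at distances of 0.15 to 0.20.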

How the data were processed

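RNA was sequenced from 6 fat libraries. The authors deposited a signal per gene, which the values show to be in steps constant within a library, as read counts over a size factor would be. Of the values, 100% were whole multiples of 1 step per library (within 0.01 reads). The deposited gene length, in base pairs, was used for levels per kilobase, and the authors' group means were not used. The submitters' processing notes name HISAT2 2.0.5, Bowtie 0.12.2 and the builds mm8 and mm9, but 12029 listed genes lie within 1000 bp of their GENCODE M21 (GRCm38) position. How reads were counted, whether by strand, and how genes were selected is not given in the sources used here.

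After a filter (10 or more in 3 or more libraries), limma 3.58.1 (R 4.3.3; mean trend, robust, two-sided) compared the groups on log2(value + 1), with group as its only term. P-values were adjusted by Benjamini-Hochberg as if all 55450 GENCODE genes had been tested, each unlisted one taking the highest p; the threshold was 0.05. If the table was selected on the outcome, as its values look, the variance prior rests on selected genes. Python 3.11.15, numpy 2.4.6, pandas 2.3.3 and scipy 1.17.1 were used. Members and lists were chosen with earlier results of these data known. Genes named are the 10 members, fixed partners, the 3 called genes with the largest change in each direction of a list, and the nearest profiles; some are given by group only, and some are not reported here. A few others were singled out after their values were seen. For genes with many reads, counting precision at these depths is high, and the spread between libraries largely sets the error. It is low for genes with few reads in 1 group, such as Fpr1, Csf3 and Ly6g before grafting. There the size of a change also depends on the value added: for Ly6g the log2 fold change was 4.62 with a pseudocount of 0.5 and 2.82 with 5.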

Additional observations from a re-analysis of the deposited data

How the results depend on the processing

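All 10 members kept a log2 fold change above 0 under every alternative run, except Mertk with ribosomal protein genes held level (-0.28). That scaling shifted all genes by -0.77 on the log2 scale, took the call of Cx3cr1 (0.73) and left 1871 genes higher over the whole table in place of 4479. It also turned Maf, to -0.13. Median-ratio scaling, equal listed totals and equal upper quartiles shifted all genes by -0.12, -0.13 and -0.19. Of all calls, 51.3% were higher, against 41.1% with equal upper quartiles and 24.7% with ribosomal protein genes held level. Adjustment over tested genes only called all 10 members, Mertk (0.49, adjusted p = 0.0159) and Ly6c2 (1.10, adjusted p = 0.0225) included. Leaving out 1 library gave 0.32 to 0.64 for Mertk, 0.90 to 1.48 for Ly6c2 and 8 to 9 members called higher, and 2770 (without replicate 3 before grafting) to 3978 genes lower over the whole table in place of 4251. Without a library, genes low in 1 group can drop below the filter and were then not tested. This was so for Csf3, Fpr1, Fpr2, Olr1, Cd300e, Ly6g and Stfa2l1 without any 1 graft. It was also so for Elane and Il5ra without any 1 library before grafting. These genes passed the filter only through the group where they are high. Such fits with 2 libraries in a group pool the spread of both groups. Under the replicate block, with the title numbers as pairs, 8 members were called higher, Mertk had an adjusted p of 0.094 and Ly6c2 of 0.263, and 3912 genes were higher and 3644 lower. Deviations of same-numbered libraries correlated at -0.16, -0.13 and 0.04, so the numbers are not shown to pair the libraries. Of the genes named in the text, the block took the calls of Itgax, Flt3 and Gzma and of no member. For the other named genes, 1291 refitted values kept their direction and side of the threshold, 48 lost the call and 7 gained it; of the list counts, 633 stayed within 1.5 times and 47 did not. Of the 8 ratios, each kept its sign under both other pseudocounts and without any 1 library. The planned count models were not run, because the files hold no raw counts and reads could not be recovered with certainty for 2 grafts, whose step lies too near 1.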
